A study of Drosophila melanogaster with 2 samples.

Results

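The regions described here were the 918 bsh-GFP ChIP-seq regions whose summit, the point of highest signal within a region, lay 501 to 2000 bp from the nearest annotated transcription start site (TSS) of a protein-coding gene. They were chosen by that distance alone, and they made up 20.6% of the 4447 regions in the list that the authors thresholded on irreproducible discovery rate (IDR), which scores how alike replicates rank their regions (95% Wilson interval 19.5% to 21.9%). By the strand of the nearest TSS, 441 lay upstream and 477 downstream. The other summits of the list were 1642 within 500 bp of a TSS, called promoter summits below, and 1887 more than 2000 bp away. ChIP-seq had been performed with an anti-GFP antibody on whole embryos of 0 to 24 h and mixed sex from 1 transgenic Drosophila melanogaster line in which GFP is joined to the C-terminal end of the homeobox gene bsh. Chromatin had been sonicated to a size range of 200 to 800 bp. There was 1 group with 2 biological replicates, and a possible control experiment that the labels name was not analysed here, so the part of the signal that does not depend on the fusion protein was not tested. In such embryos all stages and tissues are mixed, so many weakly bound cells and few strongly bound cells cannot be told apart.

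The protein bsh is a homeodomain transcription factor known for its role in the identity of neurons in the brain. Homeodomains recognise short A and T rich sites with a TAAT core. DNA within a few kilobases of a TSS, and the first intron in particular, often holds enhancers and alternative promoters in flies, whose genes are compact. GAGA factor, encoded by Trl, binds GAGAG repeats and keeps promoters and enhancers free of nucleosomes in the embryo.

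Sequences are shown for summit windows that hold the words on which the sequence results turn, each as the summit with 100 bp on either side, 5′ to 3′ on the strand of the nearest TSS. The 5 windows that come first were among the strongest on either side with the GAGA factor word GAGAGA, written in capitals as GAGAGA or, where it lies on the opposite strand, as its reverse complement TCTCTC. Upstream, these lay at chr3R:11760966-11761166 near Lk6, chr2L:715440-715640 near ds and chr3L:4228295-4228495 near a TSS shared by CG46460 and ImpL2. Downstream, they lay at chr2L:3302086-3302286 near CG9663 and chrX:5918802-5919002 near CG3726. The other 4 windows were the strongest on either side with the homeodomain core word TAATTA, in capitals. Upstream, these lay at chrX:13640402-13640602 near NFAT and chr3L:8056880-8057080 near bip1, and downstream at chr2L:6612626-6612826 near CG11050 and chr3R:11656709-11656909 near CG42327. Coordinates are 1-based on dm6, and the bases were read from the RefSeq copy of that assembly (release 6).
Lk6: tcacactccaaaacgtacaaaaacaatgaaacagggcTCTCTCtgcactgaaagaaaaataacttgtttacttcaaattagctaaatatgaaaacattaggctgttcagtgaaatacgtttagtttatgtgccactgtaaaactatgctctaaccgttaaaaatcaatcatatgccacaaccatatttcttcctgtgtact
ds: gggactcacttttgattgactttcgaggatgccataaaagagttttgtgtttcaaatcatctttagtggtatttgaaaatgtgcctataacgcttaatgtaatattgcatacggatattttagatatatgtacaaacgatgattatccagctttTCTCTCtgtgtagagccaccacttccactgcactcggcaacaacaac
CG46460 and ImpL2: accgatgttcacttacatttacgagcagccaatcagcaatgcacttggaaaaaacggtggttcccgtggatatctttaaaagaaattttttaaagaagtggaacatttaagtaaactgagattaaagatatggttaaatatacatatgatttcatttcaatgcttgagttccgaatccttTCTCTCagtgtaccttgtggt
CG9663: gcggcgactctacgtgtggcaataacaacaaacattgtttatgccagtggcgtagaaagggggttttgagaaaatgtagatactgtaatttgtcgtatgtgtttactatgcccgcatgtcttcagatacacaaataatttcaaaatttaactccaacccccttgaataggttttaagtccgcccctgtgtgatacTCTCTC
CG3726: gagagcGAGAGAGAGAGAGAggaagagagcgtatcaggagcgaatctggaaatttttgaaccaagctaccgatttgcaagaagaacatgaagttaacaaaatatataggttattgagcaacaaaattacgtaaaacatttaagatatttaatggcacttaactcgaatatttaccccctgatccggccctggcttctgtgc
NFAT: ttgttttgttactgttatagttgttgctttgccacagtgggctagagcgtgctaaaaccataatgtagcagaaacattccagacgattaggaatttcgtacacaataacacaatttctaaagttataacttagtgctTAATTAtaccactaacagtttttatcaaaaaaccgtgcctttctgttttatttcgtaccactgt
bip1: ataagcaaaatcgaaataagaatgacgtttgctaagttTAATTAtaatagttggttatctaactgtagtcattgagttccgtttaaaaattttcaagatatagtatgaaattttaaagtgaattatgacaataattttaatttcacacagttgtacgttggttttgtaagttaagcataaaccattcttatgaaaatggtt
CG11050: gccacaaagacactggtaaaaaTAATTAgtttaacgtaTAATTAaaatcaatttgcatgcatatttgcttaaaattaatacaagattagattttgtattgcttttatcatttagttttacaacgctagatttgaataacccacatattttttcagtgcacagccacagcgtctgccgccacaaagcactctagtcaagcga
CG42327: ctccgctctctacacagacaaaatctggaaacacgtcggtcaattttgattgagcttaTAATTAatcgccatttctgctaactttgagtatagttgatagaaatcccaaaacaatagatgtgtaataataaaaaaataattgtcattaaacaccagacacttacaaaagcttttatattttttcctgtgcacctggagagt

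In the windows printed above, the word was not always near the summit itself. The centre of the GAGA factor word lay 60.5 bp from the summit at Lk6 and 56.5 bp at ds, whereas at CG9663 it ended the window at 97.5 bp. The window at CG3726 held 5 overlapping matches in 1 run, 83.5 bp from the summit at the nearest. At CG11050, the second strongest of the downstream summits, TAATTA occurred at 2 places, the nearer 59.5 bp from the summit, and the single words at NFAT and CG42327 were both 39.5 bp away. These windows were chosen for holding the words, so only the distances, which varied, are described here.

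Both replicates gave nearly the same share of proximal summits. Among the 4447 strongest regions of replicate 1, 933 (21.0%) lay 501 to 2000 bp from a TSS, as did 905 (20.4%) of the 4434 strongest of replicate 2 on chromosome arms, a mean of 20.7% ± 0.403 (SD, n = 2). The bases at that distance made up 21.6% of the arms, so the proximal band held about the share of summits that its length gives. Upstream summits were 439 against 494 downstream in replicate 1, and 424 against 481 in replicate 2, which put 47.0% ± 0.143 upstream (SD, n = 2). Tests below were two-sided and treat regions as the unit, so their p-values do not measure variation between embryo collections, and all intervals cover counting error only. Read numbers are not part of the lists, and the depth of both samples is therefore unknown.

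Per base, with coding exons included, upstream sequence held more summits than downstream sequence. The upstream side offered 11.1 Mb and the downstream side 17.7 Mb, so 48.0% of the summits (95% Wilson interval 44.8% to 51.3%) lay on the side with 38.5% of the bases. This came to 39.7 summits per Mb upstream and 26.9 downstream, a ratio of 1.48 in the IDR list, with 1.42 in replicate 1 and 1.41 in replicate 2. The order held in each 500 bp step away from the TSS. From 501 to 1000 bp there were 42.8 per Mb upstream and 29.0 downstream, from 1001 to 1500 bp 36.8 and 26.8, and from 1501 to 2000 bp 38.2 upstream and 23.9 downstream. The ratio depended on counting every annotated TSS: with 1 TSS per gene it was 0.922, and the share upstream 36.1%. Coding exons made up 16.6% of the upstream bases (1.84 Mb) and 43.4% of the downstream bases (7.69 Mb), and held 1 summit on each side. The ratio of 1.48 is thus for all bases and not for sequence outside coding exons, where no such ratio was taken. The part of coding exons in the ratio was not tested. Upstream of the TSS the density had reached 219.4 per Mb at 101 to 200 bp, against 89.7 per Mb at that distance downstream, and at 501 to 600 bp it was 56.4 upstream and 25.0 downstream.

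**Figure D1:**
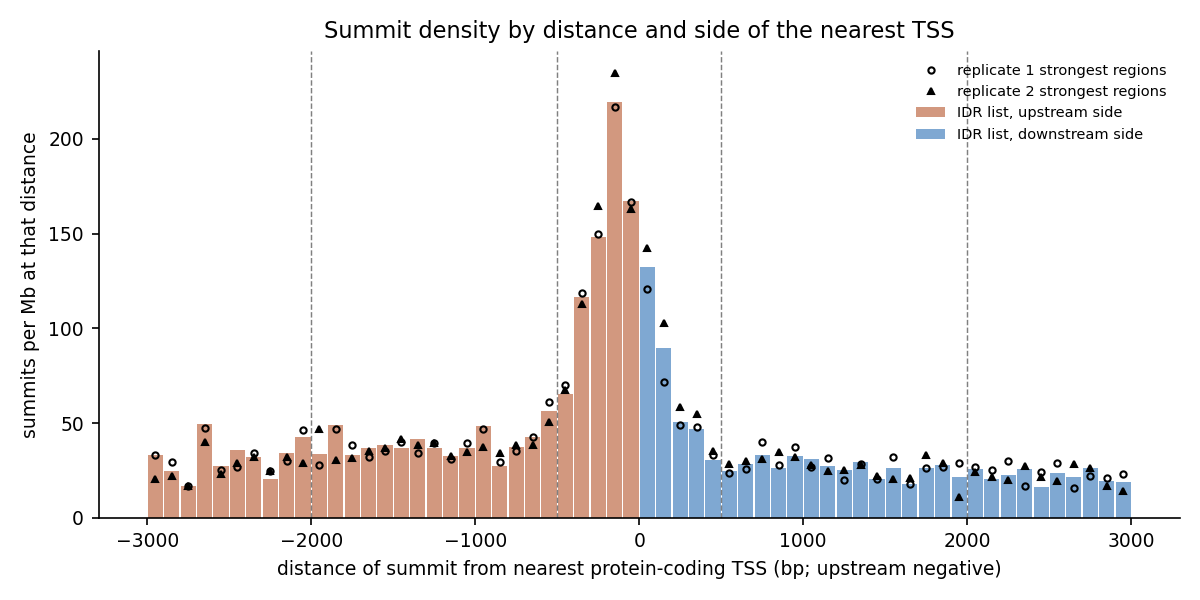
Summits per Mb of sequence at each distance from the nearest protein-coding TSS, in 100 bp steps, with negative distances upstream. Bars show the IDR list (orange upstream, blue downstream), circles and triangles the strongest regions of replicates 1 and 2, and dashed lines the limits of 500 and 2000 bp. Beyond 500 bp the density levels off, higher upstream (39.7 per Mb over the proximal band) than downstream (26.9 per Mb). These densities count all bases and so are not those outside coding exons, which made up 16.6% of the upstream and 43.4% of the downstream bases of the band.

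The limits of the band cut through a continuous range of distances. Just inside the lower limit lay summits at 501 bp upstream of sug, with a signal of 287.3, and of fzr, with 150.6. Just outside it lay one 500 bp upstream of by (307.4) and one 499 bp downstream of CG3919 (184.4). At the upper limit, the outermost inside were 1987 bp upstream of CG33177 (136.7) and 1991 bp downstream of CG42693 (286.6), and the next outside were 2007 bp upstream of tna (303.4) and 2010 bp upstream of CG43658 (202.8). Signal is the authors' value for each region, on a scale not given in the sources used here.

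Most proximal summits lay in introns. Of all 918, 648 (70.6%) were intronic, 224 (24.4%) intergenic, 23 in a 5′ UTR, 21 in a 3′ UTR and 2 in a coding exon. Downstream, 404 of 477 (84.7%) lay in an intron of the nearest gene, which made up 36.1% of the downstream bases, at 63.1 per Mb in the IDR list, 64.3 in replicate 1 and 63.1 in replicate 2. Of these 404, 366 (90.6%) were in the first intron, against 75.4% of the bases in introns of the nearest gene. Coding exons made up 43.4% of the downstream bases and held 1 summit, or 0.130 per Mb, with 0.520 in replicate 1 and 0.780 in replicate 2. Location was described, not tested.

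Many upstream summits were inside the gene whose TSS was nearest, since that gene had another TSS further upstream. An intron of the nearest gene held 177 of 441 upstream summits (40.1%) on 17.8% of the bases, at 89.6 per Mb in the IDR list, 87.1 in replicate 1 and 85.6 in replicate 2. This was the highest density of the 10 combinations of side and location in each of the 3 lists. Intergenic sequence held 198 upstream summits (44.9%) on 43.0% of the bases, at 41.5 per Mb, and 26 downstream summits, at 21.1 per Mb. An intron of another gene held 55 upstream (38.0 per Mb) and 12 downstream (21.5 per Mb), and UTRs 10 upstream (9.32 per Mb) and 34 downstream (18.3 per Mb). Coding exons again held 1 upstream summit on 16.6% of the bases.

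**Figure D2:**
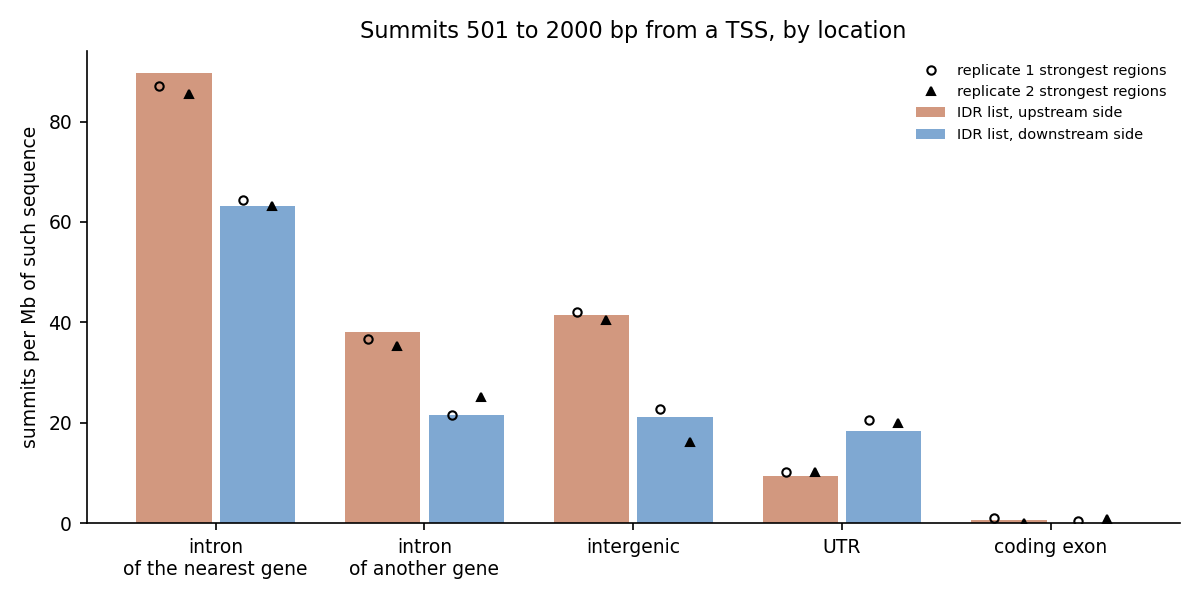
Summits per Mb of sequence in each location, upstream and downstream of the nearest TSS, over the bases 501 to 2000 bp from it. Bars are the IDR list, and symbols are the strongest regions of replicates 1 and 2. Introns of the nearest gene stand highest on both sides (89.6 per Mb upstream, 63.1 downstream) and coding exons lowest (0.543 upstream, 0.130 downstream).

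The strongest upstream summit lay 1369 bp upstream of cbt, a zinc finger factor that acts in epithelial closure of the embryo, in an intron of ush, a cofactor of GATA factors (chr2L:480882-481322). Its signal of 1417.4 was rank 9 of the list, and it ranked 13 in replicate 1 and 19 in replicate 2. A further summit lay 529 bp downstream of the same cbt TSS, in its 5′ UTR, with a signal of 1164.9 and ranks 22 and 29 in replicates 1 and 2. The promoter summit of cbt itself had a signal of 594.7, so both proximal summits were stronger than it.

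Other strong upstream summits lay near genes of varied function. The summit 854 bp upstream of speck, which encodes an N-acetyltransferase for aromatic amines, had a signal of 1214.2 and ranks 16 and 28 in replicates 1 and 2. One upstream of HmgZ, in introns of both HmgZ and HmgD, which encode HMG-box chromatin proteins, had 1171.1 and ranked 14 and 40. At Lk6, a kinase of the translation factor eIF4E, the signal was 1141.8 and the ranks 23 and 34. The Trl gene, for GAGA factor itself, had a summit 1524 bp upstream of a TSS that it shares with CG42507, with a signal of 1059.8 and ranks 24 and 46. The next were Reph (1000.3), Adk3, for an adenylate kinase (972.7), CG4496 (903.0), CG43389 (777.1), the Wingless receptor gene fz (704.4), the protocadherin gene ds (687.9) and shn (679.0), a zinc finger factor of Dpp signalling. All 12 were among the strongest regions of both replicates.

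The strongest downstream summit lay 1378 bp into CG32772, in its first intron (chrX:4909971-4910920), with a signal of 1690.1. It was rank 3 of the list, rank 4 in replicate 1 and rank 21 in replicate 2. CG11050 followed with 1599.8 in its second intron (chr2L:6612413-6612921) and ranks 5 and 13 in replicates 1 and 2, while its promoter summit had 119.9. Of the 9 downstream summits that followed cbt, 7 were in a first intron. These were CG13204 (1071.7), jumu, for a forkhead factor (954.9), Egfr, for the EGF receptor (926.8), CG9663 (841.5), CG3726 (840.2), neur, for a ubiquitin ligase of Notch signalling (788.8), and LPCAT, for a lysophospholipid acyltransferase (697.8). The summit at Nup153, a nuclear pore gene, was in the 5′ UTR (748.1), and that nearest to Ntf-2r, with 943.3, was intergenic, 1628 bp downstream of its TSS and 560 bp from the start of the non-coding let7C transcript, which carries the let-7 miRNA. All 12 downstream summits were among the strongest of both replicates, although Egfr, CG32772 and CG9663 each had a further summit within 218 bp that is counted separately.

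**Figure D3:**
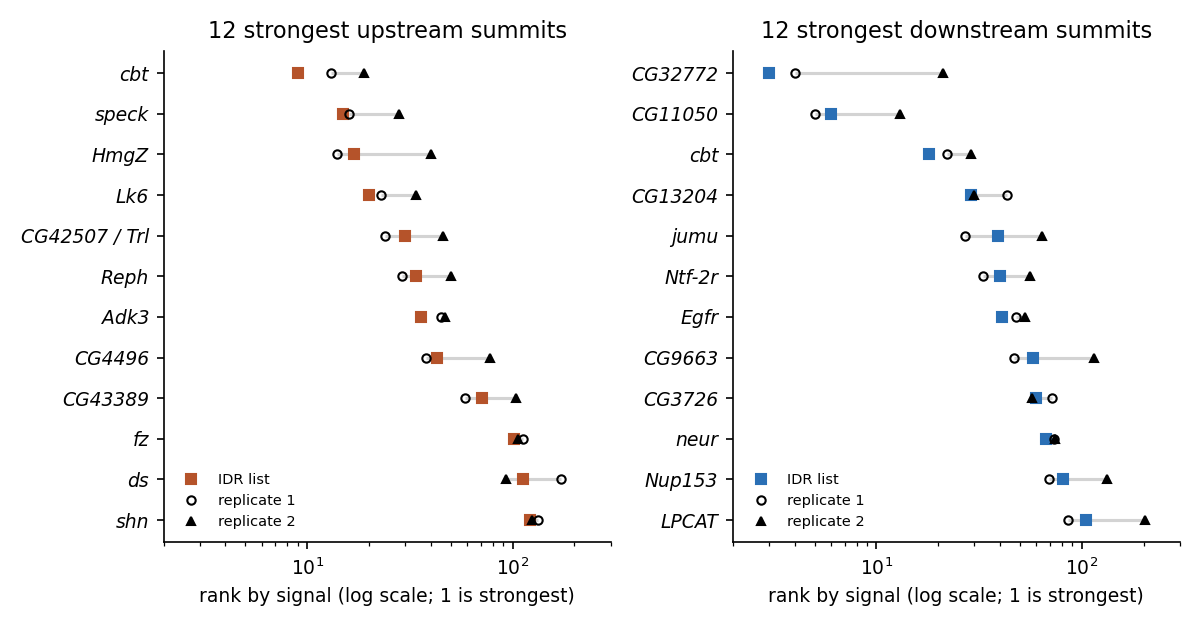
Ranks by signal, on a log scale with 1 as the strongest, of the 12 strongest upstream summits (left) and the 12 strongest downstream summits (right). Squares are ranks in the IDR list and circles and triangles ranks in replicates 1 and 2, each of 30000 regions. All 24 rank within the strongest 203 regions of both replicates.

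Over all members, the median ranks were close in the 2 replicates on both sides. The list had been thresholded on like ranks between replicates, so close medians are no independent check, and they do not show how single summits compare. The median rank of the overlapping region in replicate 1 was 1831 for upstream and 1995 for downstream summits, and in replicate 2 it was 1881.5 upstream and 2029 downstream. In replicate 2, 1 upstream and 1 downstream summit overlapped no region. The weakest match was rank 15736 in replicate 1 and rank 15026 in replicate 2, both downstream.

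Replicate support was more frequent at proximal summits than in the other classes. It is defined by rank within each replicate, so it is not independent of signal, which is described below. Of the 918, 728 (79.3%) were overlapped by at least 1 bp by the strongest regions of both replicates, against 74.8% of the whole list. The share was 73.7% for promoter summits (odds ratio 1.37, adjusted p = 0.00378, Fisher's exact test) and 73.5% for summits over 2000 bp (odds ratio 1.38, adjusted p = 0.00256). Upstream summits had it in 362 of 441 (82.1%) and downstream summits in 366 of 477 (76.7%), a difference that missed the threshold of 0.05 (adjusted p = 0.0719, by the same exact test). Both were run with Benjamini-Hochberg adjustment over the 10 tests of this kind. Among the 2223 strongest regions of the list nearly all summits had such support, and the differences were -0.455 points from promoter summits and -0.672 points from summits over 2000 bp. The call against summits over 2000 bp was also lost with 1 TSS per gene (3.42 points, adjusted p = 0.0822, exact test) and when replicate summits had to lie within 100 bp (3.98 points, adjusted p = 0.0575, exact test).

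Signal was higher at proximal summits than at the others in the IDR list. Upstream summits ran from 119.9 to 1417.4 with a median of 197.8, and downstream summits from 119.9 to 1690.1 with a median of 190.8. The medians were 194.6 for all proximal summits, 181.5 for promoter summits and 177.4 for summits over 2000 bp. At or above the list median of 182.7 were 253 upstream (57.4%) and 259 downstream summits (54.3%), which did not differ past the threshold (adjusted p = 0.392, Fisher's exact test with Benjamini-Hochberg adjustment). The share was 55.8% for all proximal summits, against 49.5% for promoter summits (adjusted p = 0.0052, by the same exact test) and 47.6% for summits over 2000 bp (adjusted p = 0.000568). The difference from promoter summits did not hold in either replicate's own list (adjusted p = 0.308 with replicate 1 alone and 0.341 with replicate 2 alone, exact test), and its sign turned among the 2223 strongest regions of the list (-3.88 points). That from summits over 2000 bp held in replicate 1 alone but not in replicate 2 alone (adjusted p = 0.173, exact test).

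The share of proximal summits did not run in one direction along the ranks. Among the strongest 100 regions 20 were proximal, among the strongest 500 23.4% and among the strongest 1000 23.0%. Along all 30000 regions called on the pooled reads, the share was 22.2% in ranks 1 to 3000, 17.9% in ranks 3001 to 6000 and 22.4% in the last 3000. The IDR list as a whole had 20.6%, against 22.5% in the same number of lowest-ranked regions (odds ratio 0.896, adjusted p = 0.0575, Fisher's exact test with Benjamini-Hochberg adjustment). Against the regions next in rank the sign turned, with 2.23 points more in the IDR list (adjusted p = 0.0146, by the same exact test).

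Of the 918 proximal summits, 393 (42.8%) accompanied a promoter summit of the same gene. This was so for 195 of 441 upstream (44.2%) and 198 of 477 downstream summits (41.5%), which did not differ past the threshold (adjusted p = 0.423, Fisher's exact test with Benjamini-Hochberg adjustment). With 1 TSS per gene, the shares were 23.9% upstream and 25.7% downstream. Among the 2223 strongest regions of the list they were 30.8% and 28.6%, and with promoter summits within 200 bp 24.9% and 28.5%. Whether these levels exceed the share among all genes was not tested. The proximal summit was the stronger of the pair in 94 of 195 upstream cases and 81 of 198 downstream cases. At shn, for example, the upstream summit had 679.0 and the promoter summit 471.5, whereas at psq, a gene for a BTB-domain factor that binds GAGA repeats, the strongest proximal summit had 175.3 and the promoter summit 770.0.

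Starts of genes that are not protein-coding lay near some of the summits, more often upstream. Within 500 bp of such a start were 38 of 441 upstream (8.62%) and 16 of 477 downstream summits (3.35%), an odds ratio of 2.72 (adjusted p = 0.00256, Fisher's exact test with Benjamini-Hochberg adjustment). The bases of the band also differed, with 4.69% within 500 bp of such a start upstream and 2.48% downstream. Within 200 bp the difference was 0.398 points and not past the threshold (adjusted p = 0.826, by the same exact test). All members together, at 5.88%, did not differ past the threshold from summits over 2000 bp, at 4.61% (adjusted p = 0.209, by the same exact test). For 48 of these 54 summits the start belonged to a non-coding RNA, for 3 to a tRNA, for 2 to the same pseudogene and for 1 to a 7SK RNA gene, snRNA:7SKa, and some starts were shared by a pair of summits.

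The strongest summits near a non-coding start, named after their values were seen, were spread over both sides. A summit 37 bp from the start of lncRNA:CR44091 and upstream of CG11550 had a signal of 553.5, with ranks 315 and 168 in replicates 1 and 2. One 21 bp from asRNA:CR46145, downstream in FER, had 538.3, with ranks 207 and 352. A summit 42 bp from lncRNA:CR44222, upstream of the chromatin remodeller gene kis, had 528.1, with ranks 329 and 222. The 3 summits near tRNA genes were all downstream, with signals below the list median of 182.7. They lay 10 bp from tRNA:Arg-TCT-1-1 (143.4), 40 bp from tRNA:Arg-TCG-2-4 (136.9) and 85 bp from tRNA:Pro-TGG-1-2 (181.2). The summits near both tRNA-Arg genes ranked 8444 and 7959 in replicate 1, against 1773 and 2098 in replicate 2, so both stood far higher in replicate 2.

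At proximal summits, 3 of 12 short words differed in frequency from the flanks of the same regions. For 12 words, the share of windows of 201 bp with the word on either strand was taken. It was compared with windows of the same width centred 600 bp further from the TSS. Flanks were not matched for location, whereas only 2 of the 918 summits lay in a coding exon. Flanks were also not cleared of other summits, and 288 of the 918 had another summit of the list within 1000 bp. GAGAGA was present at 147 of 918 summits (16.0%) and 87 flanks (9.48%), 1.69 times as often, with 133 regions where only the summit had it and 73 where only the flank did (adjusted p = 0.00042, exact McNemar test with Benjamini-Hochberg adjustment). TATAAA, the TATA box word, was present at 29.4% of summits and 21.9% of flanks (adjusted p = 0.00177, by the same exact test). CAATTA, a variant homeodomain word, was less frequent at summits, at 17.0% against 22.9% (adjusted p = 0.0075, by the same exact test). The homeodomain core TAATTA was at 16.1% of summits and 13.0% of flanks (adjusted p = 0.137, exact McNemar test), and the AP-1 word TGANTCA at 4.90% and 5.66% (adjusted p = 0.712, exact McNemar test).

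These calls depended on the flank and the width of the window. With windows of 50 bp on each side, GAGAGA differed by 2.72 points (adjusted p = 0.127, exact McNemar test), TATAAA by 4.25 points (adjusted p = 0.105) and CAATTA by -1.53 points (adjusted p = 0.521). Against the window 600 bp toward the TSS, GAGAGA differed by 2.51 points (adjusted p = 0.227, exact McNemar test) and TAATTA by 4.68 points (adjusted p = 0.0255, by the same exact test). CAATTA then differed by -2.72 points (adjusted p = 0.227, by the same exact test), and its call was also lost against a flank at 1000 bp (-1.96 points, adjusted p = 0.718). At the flank toward the TSS, TATAAA differed by 8.50 points (adjusted p = 0.000479, by the same exact test). TATAAA also lost its call when replicate 2 was used alone (3.43 points, adjusted p = 0.208, by the same exact test), and GAGAGA lost it among the 2223 strongest regions of the list (4.49 points, adjusted p = 0.114, by the same exact test). The other 7 words were the DREF word ATCGAT, the core promoter words TCACACT and TCAGTT, the Zelda word CAGGTA, the E-box words CAGCTG and CACGTG and the GATA word AGATAA, and their differences from the flank further from the TSS did not pass the threshold.

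Between upstream and downstream summits, 1 of the 12 words differed past the threshold in the IDR list, described after the others. Of the whole IDR list, 13.6% of summits had TAATTA within 100 bp, 15.9% CAATTA, 16.3% GAGAGA, 4.30% TGANTCA and 30.1% TATAAA. Upstream summits had TAATTA in 77 of 441 (17.5%) and downstream summits in 71 of 477 (14.9%), where 14.0% and 10.0% of all windows at the same distance and side had it (adjusted p = 0.776, Fisher's exact test Benjamini-Hochberg adjusted over 12 words). CAATTA was at 17.5% upstream and 16.6% downstream, beside 18.6% and 14.6% of such windows. GAGAGA was at 61 upstream (13.8%) and 86 downstream summits (18.0%), beside 6.73% and 6.67% of such windows (adjusted p = 0.439, Fisher's exact test). That difference did pass in replicate 1 alone, with 13.0% upstream and 20.9% downstream (adjusted p = 0.0202, by the same exact test), and with region midpoints in place of summits (-6.71 points, adjusted p = 0.0484), but not in replicate 2 alone, with 15.6% and 20.4% (adjusted p = 0.441). TATAAA was at 30.2% and 28.7%, beside 22.6% and 18.4%. In the IDR list, windows with GAGAGA were thus more common at summits than in sequence of the same distance on each side, a difference that was not tested. That sequence was not matched for location, and coding exons, which held few summits, made up 16.6% of its bases upstream and 43.4% downstream.

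The word that differed between the sides in the IDR list was the AP-1 word. TGANTCA was at 11 of 441 upstream (2.49%) and 34 of 477 downstream summits (7.13%), where 4.66% of upstream and 4.19% of downstream windows had it (odds ratio 0.333, adjusted p = 0.0139, Fisher's exact test with Benjamini-Hochberg adjustment). The call was lost with replicate 1 alone (3.64% upstream, 6.68% downstream, adjusted p = 0.241, exact test) and with replicate 2 alone (3.77% upstream, 6.65% downstream, adjusted p = 0.441).

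Compared with the other classes, 1 of the 12 words differed. TAATTA was at 16.1% of proximal and 11.1% of promoter summits (odds ratio 1.53, adjusted p = 0.00539, Fisher's exact test with Benjamini-Hochberg adjustment), a call lost among the 2223 strongest regions of the list (2.12 points, adjusted p = 0.647), with 1 TSS per gene (4.39 points, adjusted p = 0.062), in the strongest regions of replicate 2 alone (2.45 points, adjusted p = 0.14), and kept in those of replicate 1 (adjusted p = 0.0405). GAGAGA was at 16.0% of proximal and 19.7% of promoter summits, and TGANTCA at 4.90% and 3.05%, both short of the threshold (adjusted p = 0.0886, exact test). No word passed between proximal summits and those over 2000 bp. The median G+C content of the same windows was 36.8% at proximal summits, 40.3% at promoter summits and 35.8% at summits over 2000 bp, and its part in these word differences was not tested.

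**Figure D4:**
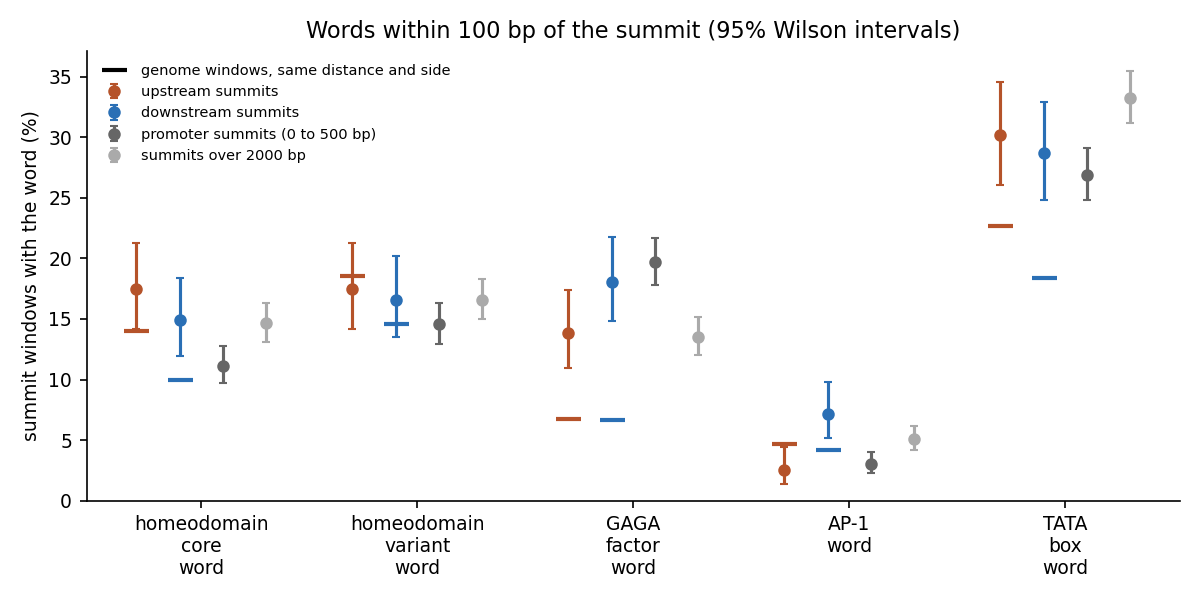
Percentage of 201 bp summit windows with each of 5 words on either strand, for upstream, downstream, promoter and more distant summits (points with 95% Wilson intervals), and for all windows of the genome at the same distance and side as the proximal summits (horizontal dashes). The GAGA factor word stands above the dashes on both sides (13.8% over 6.73% upstream, 18.0% over 6.67% downstream), as do the TATA box and homeodomain core words. The AP-1 word is the only one whose upstream and downstream points differ past the threshold (2.49% and 7.13%).

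The summits were spread over many genes. Of 13945 protein-coding genes, 743 (5.33%) had a proximal summit nearest to one of their TSSs, 373 (2.67%) upstream and 430 (3.08%) downstream, and 60 had them on both sides. A single summit was found at 595 of them, 2 at 116 and 3 or more at 32. For 21 summits the nearest TSS was shared by 2 genes. Another summit of the list lay within 1000 bp of 288 of the 918, so counts per gene include summits of a single broad site.

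The gene with most proximal summits was shn, with 7, of which 4 were upstream and 3 downstream of its TSSs, and their signals summed to 1940.4. Tlk, for a kinase of chromatin assembly, had 3 upstream and 3 downstream, and Diap1, for the main inhibitor of apoptosis, 3 upstream and 2 downstream. The summits at Diap1 had signals between 205.5 and 320.4, all above the list median of 182.7, with ranks from 819 to 1812 in the list.

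Genes of signalling pathways often had proximal summits. Of 16 matched genes of Dpp and BMP signalling 7 had one (43.8%, against 5.33% of all genes), 5 upstream and 4 downstream. They held 17 summits on 0.0641 Mb of proximal sequence, or 265.1 per Mb, against 32.1 per Mb over all genes. Besides shn, the repressor gene brk, which Dpp signalling silences, had 3 upstream summits of 346.7 to 413.0 in an intron of its neighbour CG1677. Dad, for an inhibitory Smad, had 316.7 upstream and 202.2 downstream, and put, for a type II receptor, 308.0 downstream. These lists were described by counts, without a test. Close summits were counted separately in them, also where they matched the same region in each replicate. The brk summits of 413.0 and 346.7 did so (ranks 295 and 986 in replicates 1 and 2), as did pairs at Raf, numb, fz, slpr, lab and ph-d, among others.

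In the EGF receptor list 6 of 19 genes had a summit (31.6%, against 5.33% of all genes), 2 upstream and 4 downstream. Their density was 147.9 per Mb, against 32.1 over all genes. The receptor gene Egfr had 926.8, Raf, for its kinase, had 440.8 and 300.2 downstream, sty, for the feedback inhibitor Sprouty, had 406.4 upstream, and pnt, for an ETS factor, 3 downstream summits of 124.5 to 209.7. In the Notch list 5 of 23 genes had one (21.7%), at 128.4 per Mb. These included neur (788.8), fng, which modifies the Notch receptor, with 515.5 and 382.3 upstream, numb, for a Notch inhibitor, with 174.0 and 120.2, and E(spl)m3-HLH, a Notch target, with 154.4. In the Wingless list 4 of 19 genes had one (21.1%), at 96.1 per Mb, all of them receptor or ligand genes. The receptor gene fz had 704.4 and 202.4, fz2 241.5 upstream and 270.2 downstream, fz3 125.6, and the ligand gene Wnt5 162.1.

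Growth and stress genes were also represented. In the Hippo list 4 of 13 had a summit, with the protocadherin genes ds (687.9) and ft (427.6) and the gene ex (257.3) upstream and the kinase gene wts (125.1) downstream. In the insulin and TOR list 6 of 20 had one, 5 upstream and 1 downstream, and these included Lk6, Sesn (378.7), Myc (157.4) and chrb (156.8). In the JNK and stress list 5 of 18 had one, which included cbt, the kinase gene msn (365.1), kay, for a Fos protein (197.8), and slpr, for a JNK kinase kinase (152.5 and 120.6). Of the 10 JAK/STAT genes, Stat92E had 283.0 and ken 178.6, both downstream. Of 17 genes for ubiquitin, autophagy and cell death, 2 had one, Diap1 and Atg8a (243.2). Across these growth, stress, JAK/STAT and cell death lists, shares ran from 11.8% (cell death) to 30.8% (Hippo), against 5.33% of all genes. Densities ran from 91.1 per Mb (JAK/STAT) to 147.9 per Mb (cell death), against 32.1 over all genes.

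Ecdysone genes had their summits mainly upstream. The density was 88.9 per Mb, against 32.1 over all genes. Of 15 ecdysone genes, 6 had a proximal summit (40.0%, against 5.33% of all genes), all 6 upstream and 1 also downstream. They included ImpL2, for an insulin-binding protein (553.6), Eip74EF, for an ETS factor (380.9), ImpE2 (317.8 and 149.3) and Eip75B, for a nuclear receptor (159.7 upstream, 311.2 downstream). The upstream summit of Eip75B ranked 7834 in replicate 1 and 1119 in replicate 2. In the Polycomb and trithorax list 4 of 23 genes had a proximal summit (17.4%), at 189.5 per Mb. These were Trl, the adjacent genes ph-d (305.2 and 246.8 upstream) and ph-p (182.6 and 120.9 downstream), and psq.

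Homeobox genes were close to the share of all genes. Of 64 matched, 3 had a proximal summit (4.69%, against 5.33% of all genes), all upstream, with 4 summits at 16.3 per Mb against 32.1 over all genes. NK7.1 had 492.0, with ranks 397 and 245 in replicates 1 and 2, zfh1 had 336.5, with ranks 665 and 891, and the Hox gene lab 184.8 and 141.7. NK7.1 also had a stronger promoter summit of 685.6.

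All chromosome arms had proximal summits. They were 20.5% to 21.3% of the list's regions on the arms of chromosome 2, 19.2% to 19.8% on those of chromosome 3 and 23.1% on X, with 1 of 15 regions on chromosome 4. Upstream summits numbered 81 to 93 and downstream summits 81 to 105 on each of the 5 large arms.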

How the data were processed

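Regions came from the deposited dm6 lists, in which the authors' peak caller had written a signal value and a summit for each region, per the file records. Per the same records, lists of 30000 regions with background were called on the reads of either replicate and on those pooled, each with a further input file, and the IDR list was derived from them. It was found to be the 4447 pooled regions of highest signal. The aligner, the peak caller, the IDR threshold and the scale of the signal are each not given in the sources used here. Each replicate was represented by as many of its strongest regions, of which 4434 lay on chromosome arms in replicate 2. The dm3 lists were not used.

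Distances ran to the nearest of 19253 TSS positions of 13945 protein-coding genes in Ensembl release 115 (BDGP release 6). Bases at each distance, side and location were counted on the same arms, locations and non-coding starts every 200 bp and words every 1000 bp. In 439 members the summit was the centre of a region of the commonest width, 440 bp. Shares have 95% Wilson intervals. Classes were compared by Fisher's exact tests and summits with flanks by exact McNemar tests, with Benjamini-Hochberg adjustment over 10 tests or 12 words. The scripts were tested on simulated data. Python 3.11.15 was used, with scipy 1.17.1 for tests, pandas 2.3.3 and numpy 2.4.6 for tables, and matplotlib 3.10.9 for figures. Genes named were the 12 strongest members on each side, those at the distance limits, the 3 with most members and up to 4 per list, and the sequences were from the 3 strongest members per side with GAGAGA and the 2 strongest with TAATTA, on arms other than 2R and outside UTRs, of which 1 with GAGAGA is not reported here. Symbols matched in full in 8 of the 12 lists, and 1 gene was unmatched in each of the other 4. The members and lists were chosen with earlier results of these data known.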

Additional observations from a re-analysis of the deposited data

Results flagged for a closer look

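Among the strongest regions of replicate 2, 13 lay on the mitochondrial chromosome, against 0 in replicate 1. They belong to no comparison of proximal summits, since the distances were measured on the chromosome arms, and their source was not tested.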

How the results depend on the processing

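Across 19 alternatives, 435 values were recomputed, and 294 were labelled as kept. These kept their direction and their side of the threshold, stayed within the replicate spread or, as counts of words, were equal or of similar size. Depth is unknown, so its effect could not be assessed. No paired analysis was possible because both replicates belong to 1 group. The alternative that keeps only the 2006 regions of other than the commonest width was chosen after seeing the data. Differences are in percentage points, upstream minus downstream or proximal minus the other class. The cause of a change was not tested.

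The share upstream was 36.1% with 1 TSS per gene, 45.3% with the TSSs of all genes, 49.4% in the 2223 strongest regions, 47.5% with overlapping regions merged, 47.8% up to 1500 bp, 49.5% in regions of other width and 46.9% to 47.1% in single replicates. The upstream over downstream density was 0.922, 1.28, 1.56, 1.45, 1.44 and 1.56 in the same order of alternatives, and 1.41 to 1.42 in single replicates. The share of proximal summits, list minus lowest-ranked regions, differed by -2.77 points with the TSSs of all genes (adjusted p = 0.00702, Fisher's exact test), -2.10 with merging (adjusted p = 0.0311), 0 in the strongest 2223, -4.64 to -1.89 in single replicates, 2.23 against the next-ranked regions and 23.9 in regions of other width, where 7 lowest-ranked regions remained. 

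For signal, upstream minus downstream was -2.32 in the strongest 2223 and -1.88 in regions of other width. Proximal minus promoter was -3.88 in the strongest 2223, -6.84 in regions of other width, 1.27 at the upper quartile and 2.62 to 2.66 in single replicates. Proximal minus over 2000 bp was 5.88 in the strongest 2223, 5.61 in regions of other width and 3.58 to 7.36 in single replicates. For replicate support, upstream minus downstream was 6.77 with the TSSs of all genes (past the threshold) and -0.0785 in regions of other width. Proximal minus promoter was -0.455 in the strongest 2223 and 0.214 in regions of other width. Proximal minus over 2000 bp lost its call at 3.42 with 1 TSS per gene, 3.98 with summits within 100 bp, 2.81 in regions of other width and -0.672 in the strongest 2223. Company of a promoter summit was -1.78 with 1 TSS per gene and -3.57 with promoter summits within 200 bp. For non-coding starts, upstream minus downstream was 0.398 within 200 bp, and proximal minus over 2000 bp was 2.37 with 1 TSS per gene, past the threshold.

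The number of words higher at summits than flanks, 2 as reported, was 0 with windows of 50 bp each side and 1 with windows of 200 bp, in the strongest 2223 and in regions of other width, and 1 to 2 in single replicates. The number lower, 1 as reported, was 0 up to 1500 bp, with the flank toward the TSS, the flank at 1000 bp and windows of 50 bp, 2 in regions of other width and 3 with the TSSs of all genes and with region midpoints. Between sides, the number lower upstream, 1 as reported, was 2 with region midpoints, 0 to 1 in single replicates, and 0 with 1 TSS per gene, the TSSs of all genes, the strongest 2223, distances up to 1500 bp, windows of 50 or 200 bp and regions of other width. Against promoter summits, the number higher, 1 as reported, was 0 with 1 TSS per gene, in the strongest 2223, up to 1500 bp and in regions of other width, 2 with windows of 50 bp, 3 with windows of 200 bp and 0 to 2 in single replicates. The number lower there, 0 as reported, was 1 with the TSSs of all genes, 5 with windows of 200 bp and 0 to 2 in single replicates. Against summits over 2000 bp, 0 as reported in either direction, 1 was lower with windows of 50 bp and 0 to 1 higher in single replicates.

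Single words changed sign, none past the threshold as reported or in the alternative. Upstream minus downstream, TAATTA was -1.79 with the TSSs of all genes and -0.134 in regions of other width, CAATTA -0.00153 in the strongest 2223 and -0.917 in regions of other width and -0.477 to 0.849 in single replicates, and TATAAA -0.236 with 1 TSS per gene, -1.55 in the strongest 2223 and -2.30 in regions of other width. Proximal minus promoter, GAGAGA was 1.09 with 1 TSS per gene, TGANTCA -0.340 in regions of other width, and TATAAA -0.218 with windows of 50 bp and -0.784 in regions of other width. Proximal minus over 2000 bp, CAATTA was -0.176 with the TSSs of all genes, -0.325 in the strongest 2223, -0.380 with windows of 50 bp and -0.523 to 1.31 in single replicates, and TATAAA was 0.577 in the strongest 2223. TGANTCA was 0.0316 up to 1500 bp, 0.135 and 0.960 with windows of 50 and 200 bp, and 0.127 to 0.137 in single replicates. TAATTA was -0.144 to 0.710 in single replicates and -0.299 in regions of other width, and GAGAGA -0.210 there. Summit minus flank, TGANTCA was 0.109 and 0.218 with windows of 50 and 200 bp.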
